A study of Mus musculus with 24 samples.

Results

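The binding sites of the transcription factors SOX10 and TFAP2A were set against each other within 1 mouse melanoma line, line 493, which carried a Kmt2d mutation. The sites were the narrow peaks of the SOX10 library made with the antibody from CST (SOX10 U) and of the TFAP2A library (antibody from Proteintech). They numbered 6358 SOX10 U peaks and 18530 TFAP2A peaks, together 24888 of the 197727 peaks in the series. A peak is called joint where a peak of the other factor overlapped it by at least 1 bp, and SOX10-only or TFAP2A-only where none did. The series held 24 samples of 2 melanoma lines, the mutant line 493 and the Kmt2d wild type line 971 (WT), grown in DMEM/F12 medium with fetal bovine serum and profiled by CUT&RUN. In CUT&RUN an antibody directs a nuclease to a chromatin protein and the released DNA is sequenced. Besides SOX10 U and TFAP2A, the mutant line had lists for SOX10 with an antibody from Bethyl (SOX10 T), TFAP2B, H3K4me3, the SWI/SNF subunits ARID1A, SMARCC1, ARID2, PBRM1 and BRD9, the demethylase UTX, and Menin, 12 in all. The WT line had 10 lists, among them TFAP2A and KMT2D, and SOX10 was used here in the mutant line only. There was 1 library per target and line, so no value has a replicate check and no test of significance was possible. Each genotype was 1 line, so genotype and line cannot be told apart. The lists hold no read counts, so depth is unknown, and the intervals given are Wilson 95% intervals that cover counting error only.

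SOX10 is an HMG-box factor of the SOXE group that specifies neural crest cells and is then required in melanocytes and Schwann cells, where it acts on pigment genes and on myelin genes. TFAP2A is an AP-2 factor that binds GC-rich palindromes as a dimer, alone or with its paralogue TFAP2B, and takes part in the formation of neural crest, melanocytes and epidermis. H3K4me3 marks active promoters, ARID1A belongs to the canonical BAF form of the SWI/SNF remodeller, and UTX is an H3K27 demethylase that works in the KMT2D complex at enhancers.

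The letters under the 3 kinds of site are shown for 6 promoters, as RefSeq gives them on GRCm38.p6, from 250 bases before to 50 after an annotated start. For joint peaks the pair is the promoter of highest SOX10 U fold enrichment (Fgd4, chr16:16560170-16560469, minus strand, 29.9) and the first in that order to hold both motifs apart from each other (Msantd4, chr9:4376302-4376601, plus strand, 12.7). For SOX10-only peaks Mtmr2 (chr9:13765704-13766003, plus strand, 25.4) and Tmprss5 (chr9:49102478-49102777, plus strand, 17.2) are shown, and for TFAP2A-only peaks Mxd1 (chr6:86669110-86669409, minus strand, TFAP2A fold enrichment 175) and Pwwp3a (chr10:80226348-80226647, plus strand, 156). Capitals mark a SOX core (ACAAAG or ACAATG) or a TFAP2 core (GCCNNNGGC), searched on both strands.
Fgd4: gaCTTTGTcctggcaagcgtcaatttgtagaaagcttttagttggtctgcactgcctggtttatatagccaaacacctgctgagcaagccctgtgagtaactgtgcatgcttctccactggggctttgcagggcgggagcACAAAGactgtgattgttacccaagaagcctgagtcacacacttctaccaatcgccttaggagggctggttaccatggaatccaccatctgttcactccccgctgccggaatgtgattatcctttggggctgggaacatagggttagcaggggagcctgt
Msantd4: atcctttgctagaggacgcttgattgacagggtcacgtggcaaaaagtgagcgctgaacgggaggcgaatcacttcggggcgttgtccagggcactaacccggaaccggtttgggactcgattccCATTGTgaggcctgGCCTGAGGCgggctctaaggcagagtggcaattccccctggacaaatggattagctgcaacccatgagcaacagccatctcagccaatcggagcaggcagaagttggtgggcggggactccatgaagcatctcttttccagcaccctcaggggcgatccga
Mtmr2: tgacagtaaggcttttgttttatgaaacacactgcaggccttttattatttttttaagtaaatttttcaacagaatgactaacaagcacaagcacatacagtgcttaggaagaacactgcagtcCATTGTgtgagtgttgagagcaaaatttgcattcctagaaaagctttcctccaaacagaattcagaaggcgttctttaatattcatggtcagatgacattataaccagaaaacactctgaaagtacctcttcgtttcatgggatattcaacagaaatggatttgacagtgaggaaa
Tmprss5: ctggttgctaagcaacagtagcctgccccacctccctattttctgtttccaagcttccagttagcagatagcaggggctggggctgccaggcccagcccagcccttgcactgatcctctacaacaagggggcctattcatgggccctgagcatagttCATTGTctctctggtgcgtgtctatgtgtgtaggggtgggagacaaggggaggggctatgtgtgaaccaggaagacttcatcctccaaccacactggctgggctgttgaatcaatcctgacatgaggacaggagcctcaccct
Mxd1: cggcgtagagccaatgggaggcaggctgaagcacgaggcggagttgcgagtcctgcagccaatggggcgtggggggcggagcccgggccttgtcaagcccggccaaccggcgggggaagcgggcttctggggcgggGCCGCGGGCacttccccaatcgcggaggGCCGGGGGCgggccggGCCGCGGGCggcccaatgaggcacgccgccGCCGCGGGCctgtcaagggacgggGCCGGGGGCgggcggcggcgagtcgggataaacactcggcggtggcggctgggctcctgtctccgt
Pwwp3a: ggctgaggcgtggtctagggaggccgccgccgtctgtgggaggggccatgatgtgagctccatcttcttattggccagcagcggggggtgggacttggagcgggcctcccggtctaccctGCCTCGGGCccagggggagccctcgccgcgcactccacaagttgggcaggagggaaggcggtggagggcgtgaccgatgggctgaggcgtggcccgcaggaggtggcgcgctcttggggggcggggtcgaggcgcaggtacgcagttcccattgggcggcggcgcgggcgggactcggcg
The Fgd4 window held 2 SOX cores and no TFAP2 core, although a TFAP2A peak with a fold enrichment of 12.7 had its summit 2 bp from that of SOX10. In the Msantd4 window 1 SOX core and 1 TFAP2 core stood close together, and the TFAP2A fold enrichment there was 59.4. The SOX10 and TFAP2A summits at Msantd4 lay 159 bp apart, so they were not both at these neighbouring cores. The SOX10-only windows of Mtmr2 and Tmprss5 each held 1 SOX core and no TFAP2 core, and the TFAP2A-only window of Mxd1 held 5 TFAP2 cores and no SOX core. Fgd4 and Mtmr2 encode a guanine nucleotide exchange factor and a phosphoinositide phosphatase whose human counterparts are mutated in inherited demyelinating neuropathies, a disease of Schwann cells, which was seen after their values were known. The starts shown for Fgd4, Mtmr2 and Tmprss5 lie inside the genes, so their peaks are not among those counted at gene ends.

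Over all windows with a summit inside, the TFAP2 core stood in 24.6% of the 350 with a joint SOX10 U summit (20.4–29.3%), in 5.19% of the 77 with a SOX10-only summit (2.04–12.6%) and in 39.9% of the 3176 with a TFAP2A-only summit (38.2–41.6%). The SOX core ran the other way, at 24.9% of joint windows (20.6–29.6%), 35.1% of SOX10-only windows (25.3–46.2%) and 13.9% of TFAP2A-only windows (12.8–15.2%). Of all 21229 windows, 19.9% held the TFAP2 core and 25.7% the SOX core. Base composition moved with the classes, with a median GC content of 60.7% in joint, 54.7% in SOX10-only and 65.0% in TFAP2A-only windows. Windows with neither factor held the SOX core in 19.7% of cases where H3K4me3 was present (GC content 60.0%) and in 34.8% where it was absent (GC content 49.0%). The SOX core was thus as common in windows that lacked the factors and the mark as in SOX10-only windows, within the interval of the SOX10-only share. The part of GC content in these shares was not tested. Windows can overlap and share a summit, as those of Tmprss5 did, so some summits were counted more than once and the intervals do not allow for this.

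Nearly as many SOX10 sites lay on a TFAP2A site as lay apart from one, while most TFAP2A sites held no SOX10. Joint peaks were 3079 of the 6358 SOX10 U peaks (48.4%, 47.2–49.7%) and 3060 of the 18530 TFAP2A peaks (16.5%, 16.0–17.1%), in 3084 overlapping pairs. The other 3279 SOX10 U peaks and 15470 TFAP2A peaks were of 1 factor only. The share depended on list length. With the TFAP2A list shortened to its 6358 peaks of highest −log10 q, 23.4% of SOX10 U peaks were joint. The SOX10 T list, which differs in antibody and library as well as in length (1163 peaks), gave 66.0% of its own peaks and 4.15% of TFAP2A peaks as joint. SOX10 U peaks also called with SOX10 T were joint in 67.2% of cases (64.2–70.1%, n = 975), against 45.0% of those without it (43.7–46.4%, n = 5383). Among chromosomes the joint share of SOX10 U peaks ran from 29.6% on X to 59.3% on 11.

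Joint and SOX10-only peaks lay mainly far from gene ends, while TFAP2A-only peaks lay about as often near a gene end as far from one. Within 1 kb of either end of a protein-coding gene, here called a gene end, were 17.5% of joint peaks (16.2–18.9%), 5.43% of SOX10-only peaks (4.70–6.26%) and 43.1% of TFAP2A-only peaks (42.3–43.9%). Beyond 5 kb from any gene end were 71.0% of joint, 86.1% of SOX10-only and 42.3% of TFAP2A-only peaks. The median distance to a gene end was 18246 bp for joint, 36290 bp for SOX10-only and 2148 bp for TFAP2A-only peaks. The summit fell inside the span of a gene in 51.4% of joint, 51.4% of SOX10-only and 59.5% of TFAP2A-only peaks.

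**Figure D1:**
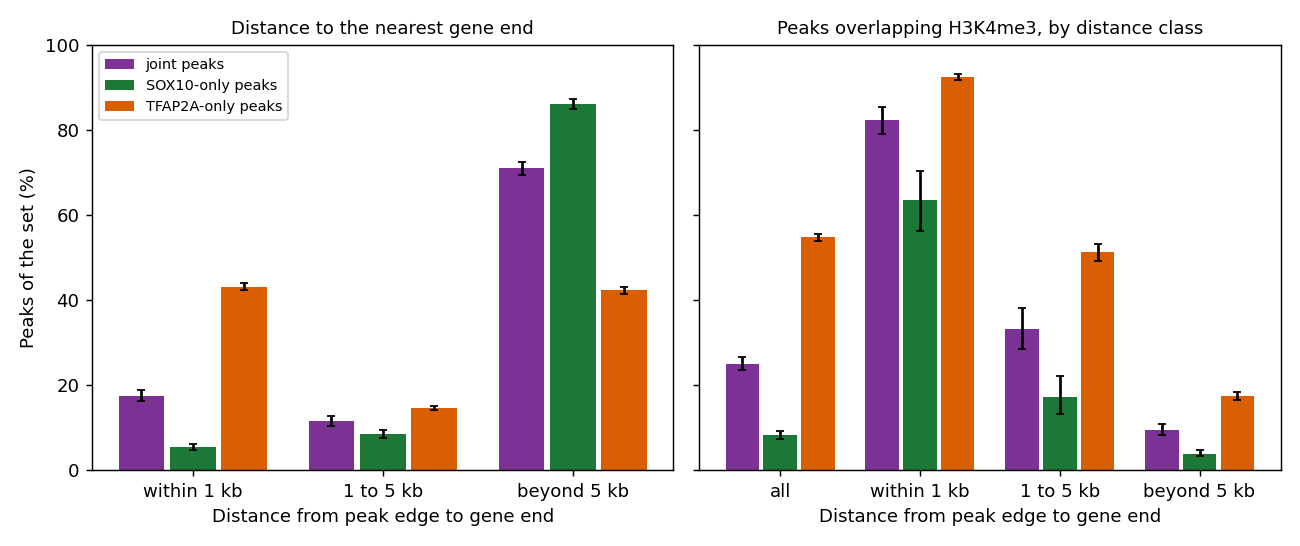
Bars give the percentage of joint, SOX10-only and TFAP2A-only peaks of the mutant line in 3 classes of distance to the nearest gene end (left) and the percentage that overlapped H3K4me3 in all peaks and in each class (right), with Wilson 95% intervals. SOX10-only peaks are the most distal class (86.1% beyond 5 kb) and TFAP2A-only peaks the one most often at gene ends (43.1%).

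The promoter mark followed the same order. H3K4me3 overlapped 25.0% of joint peaks (23.5–26.5%), 8.26% of SOX10-only peaks (7.37–9.26%) and 54.7% of TFAP2A-only peaks (53.9–55.4%). The order held inside each distance class. Within 1 kb of a gene end the mark was on 82.3% of joint, 63.5% of SOX10-only and 92.4% of TFAP2A-only peaks, and beyond 5 kb on 9.55%, 3.90% and 17.4% of the same classes. Read from each factor, the place of joint sites was opposite. A SOX10 U peak was joint in 75.1% of cases within 1 kb of a gene end and in 43.5% beyond 5 kb, whereas a TFAP2A peak was joint in 7.70% of cases within 1 kb and in 24.8% beyond 5 kb. SOX10 U peaks with H3K4me3 were joint in 73.9% of cases and those without it in 43.4%, while TFAP2A peaks with the mark were joint in 8.61% of cases and those without it in 24.4%. So the few SOX10 sites at gene ends mostly carried TFAP2A, and the many TFAP2A sites at gene ends mostly lacked SOX10.

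Joint sites were stronger than single sites in each list. Fold enrichment is the authors' value per peak and is compared only within a list. In the SOX10 U list the median was 7.25 for joint peaks and 6.35 for SOX10-only peaks (interquartile ranges 5.44–9.97 and 5.10–9.07), so the classes overlapped widely. In the TFAP2A list it was 11.0 for joint and 7.67 for TFAP2A-only peaks (6.79–22.8 and 5.09–14.0). With each list divided into 4 equal classes of fold enrichment, the joint share of SOX10 U peaks was 43.1%, 47.1%, 47.0% and 56.4% from the lowest class to the highest, and that of TFAP2A peaks 9.09%, 14.2%, 17.7% and 25.1%. Beyond 5 kb the top class was joint in 53.7% of SOX10 U peaks (51.1–56.3%) and in 40.7% of TFAP2A peaks (38.4–43.1%), against 34.7% and 13.6% in the lowest class. Joint peaks were also wider, with a median of 262 bp against 225 bp for SOX10-only peaks in the SOX10 U list and 404 bp against 352 bp for TFAP2A-only peaks in the TFAP2A list. Wider peaks overlap more often by position alone, and the part of width was not tested.

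**Figure D2:**
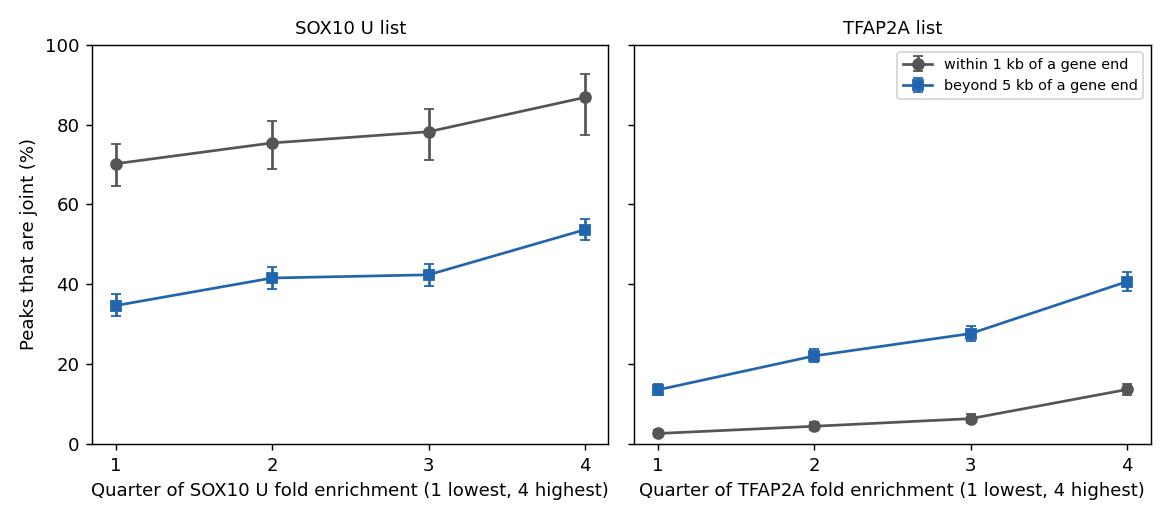
Points give the percentage of peaks that are joint in 4 equal classes of fold enrichment, for the SOX10 U list (left) and the TFAP2A list (right), within 1 kb and beyond 5 kb of a gene end, with Wilson 95% intervals. The share is higher in the top class than in the lowest in each panel and place, and the places are in opposite order in the 2 lists.

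At joint sites that also held SOX10 T, the SOX10 U summit lay farther from the TFAP2A summit than from the SOX10 T summit. Joint peaks overlap by definition, so a short distance between summits follows in part from that definition and from peak width. The median distance between the SOX10 U summit and the TFAP2A summit was 68 bp (65–72 bp, n = 3079), with 40.0% of pairs within 50 bp and 87.2% within 200 bp. Overlapping peaks of the 2 SOX10 antibodies had a median of 41 bp (37–45 bp, n = 975), and those of TFAP2A with its paralogue TFAP2B 46 bp (45–48 bp, n = 7990). At the same 655 joint peaks that also held SOX10 T, SOX10 U lay 42 bp (36–47 bp) from SOX10 T and 73 bp (65–79 bp) from TFAP2A. At the 1665 that held TFAP2B, SOX10 U lay 67 bp from TFAP2B (63–73 bp) and 72 bp from TFAP2A (67–76 bp), 2 intervals that overlap. SOX10 U summits were nearer to those of the cofactors than to TFAP2A, at 52 bp from ARID1A against 68 bp from TFAP2A over 2812 joint peaks, and at 48 bp from UTX against 68 bp from TFAP2A over 2369. Read from the TFAP2A list, joint TFAP2A summits lay 42 bp from TFAP2B, 58 bp from ARID1A and 60 bp from UTX. The SOX10 to TFAP2A distance was shorter beyond 5 kb from a gene end (65 bp) than within 1 kb (96 bp), and shorter in the top SOX10 U fold class (59 bp) than in the lowest (87 bp). At 811 narrow joint peaks, under the median widths, the SOX10 to TFAP2A distance was 50 bp (46–55 bp). The lists differed in median peak width, at 361 bp for TFAP2A, 338 bp for ARID1A, 275 bp for UTX and 259 bp for SOX10 T. The part of width in the order of these distances was not tested.

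**Figure D3:**
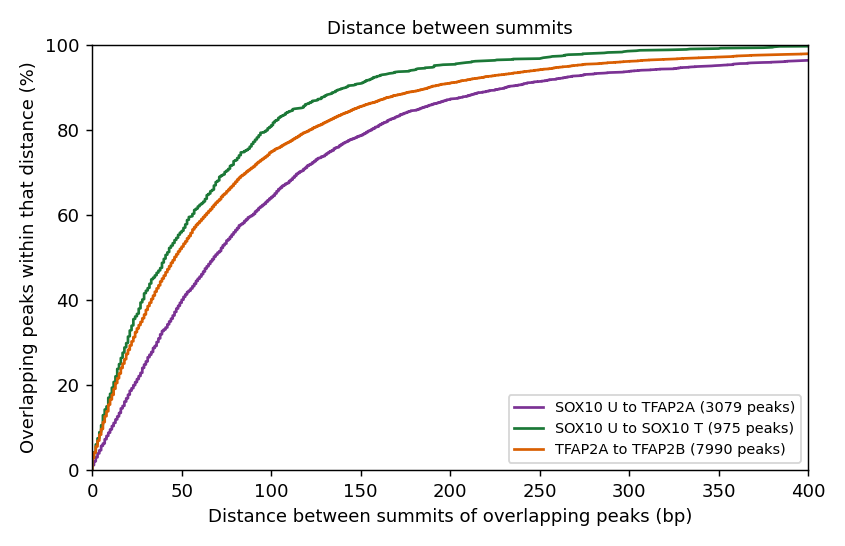
Curves give the cumulative percentage of overlapping peaks against the distance between their summits in bp, for SOX10 U with TFAP2A (3079 peaks), SOX10 U with SOX10 T (975 peaks) and TFAP2A with TFAP2B (7990 peaks) in the mutant line. The SOX10 U to TFAP2A curve lies below the other 2, with 40.0% within 50 bp against 56.2% and 52.5%.

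Few sites of 1 factor only had a called peak of the other factor close by. Overlapping peaks are left out here by definition, and a peak below the caller's threshold would not be seen. The nearest TFAP2A summit lay a median of 31788 bp from a SOX10-only summit, and 5.25% of SOX10-only peaks had one within 1 kb. The nearest SOX10 U summit lay a median of 77816 bp from a TFAP2A-only summit, and 1.91% had one within 1 kb. The SOX10 U list is the shorter one, and the part of list length in these distances was not tested.

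Beyond 5 kb from gene ends, joint sites carried the cofactors more often than sites of 1 factor. ARID1A overlapped 91.5% of the 2177 joint peaks there (90.3–92.6%), 59.9% of the 2822 SOX10-only peaks (58.1–61.7%) and 55.7% of the 6539 TFAP2A-only peaks (54.5–56.9%). UTX separated all 3 classes, at 78.8% of joint, 46.6% of SOX10-only and 22.7% of TFAP2A-only peaks. SMARCC1, a core SWI/SNF subunit, was on 21.9%, 7.19% and 8.47% of the same classes, and Menin, the scaffold that KMT2A and KMT2B complexes share, on 19.2%, 9.78% and 14.2%. ARID1A and UTX together without H3K4me3 were found at 68.7% of joint, 36.2% of SOX10-only and 18.4% of TFAP2A-only peaks. Peaks with none of the other mutant lists made up 4.32% of joint, 28.9% of SOX10-only and 28.9% of TFAP2A-only peaks. Seen from TFAP2A, a distal TFAP2A peak with UTX was joint in 53.4% of cases (51.7–55.1%) and one without UTX in 8.16% (7.47–8.92%).

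The cofactor difference was present within classes of fold enrichment. These classes are broad, the top one running from 15.3 to 305 for TFAP2A and from 9.36 to 56.2 for SOX10 U, and strength was not matched inside them. In the top class of TFAP2A fold enrichment, UTX was on 90.0% of distal joint peaks and 43.1% of distal TFAP2A-only peaks, while TFAP2B was on 90.9% and 85.8%. In the lowest class UTX was on 73.0% of joint and 12.8% of TFAP2A-only peaks. Among distal SOX10 U peaks of the top class, UTX was on 87.7% of joint and 64.2% of SOX10-only peaks, and ARID1A on 94.8% and 71.0%. TFAP2B was on 47.9% of distal joint, 1.52% of SOX10-only and 28.2% of TFAP2A-only peaks. SOX10 T was on 22.1% of joint, 10.1% of SOX10-only and 0.872% of TFAP2A-only peaks.

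**Figure D4:**
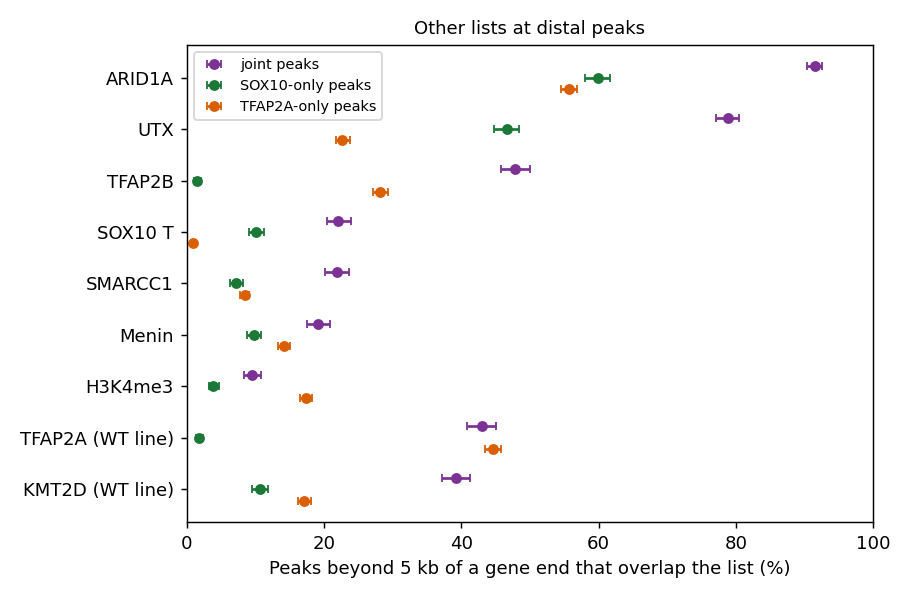
Points give the percentage of joint, SOX10-only and TFAP2A-only peaks beyond 5 kb of a gene end that overlapped each other list, with Wilson 95% intervals; lists are from the mutant line unless marked WT. Joint peaks stand highest for ARID1A (91.5%), UTX (78.8%), TFAP2B (47.9%) and KMT2D of the WT line (39.3%).

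The same positions were looked up in the WT line, which is another line and not a control for SOX10. TFAP2A of the WT line, with 11636 peaks, overlapped 43.0% of distal joint peaks, 1.81% of distal SOX10-only peaks and 44.6% of distal TFAP2A-only peaks. Within each class of TFAP2A fold enrichment the distal joint sites had it less often. From the lowest to the highest class of mutant TFAP2A fold enrichment, WT TFAP2A lay on 9.91%, 21.0%, 38.9% and 80.3% of joint peaks, against 20.6%, 34.5%, 60.7% and 87.7% of TFAP2A-only peaks, and the intervals were separate in each class. Against SOX10 strength the order was reversed, since WT TFAP2A lay on 55.6% of distal joint peaks in the lowest SOX10 U class (50.7–60.5%) and on 33.2% in the highest (29.9–36.7%). WT KMT2D, the methyltransferase whose gene is mutated in line 493, overlapped 39.3% of distal joint, 10.7% of SOX10-only and 17.1% of TFAP2A-only peaks.

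The strongest distal joint sites were those at Padi2, Gfra2 and Ets1. Peaks were taken by fold enrichment, 10 per class and place, outside regions called in at least 15 of the 22 lists. The highest, inside Padi2, which encodes a protein-citrullinating enzyme, had a SOX10 U fold enrichment of 56.2 and a TFAP2A fold enrichment of 15.3, with summits 13 bp apart (chromosome 4, 140929773 to 140930132). Next was a site nearest to Gfra2, which encodes a co-receptor for GDNF-family ligands (SOX10 U 51.9, TFAP2A 92.8), and then a site inside Ets1, an ETS factor gene of the neural crest (SOX10 U 49.0, TFAP2A 31.4, chromosome 9, 32668134 to 32668660). The other 7 lay at Dlgap1, Tle3, a Groucho co-repressor gene, Gse1, Prkca, the gene for protein kinase C alpha, Tafa5, Trip13 and Car8, with SOX10 U values of 36.6 to 48.1. All 10 carried ARID1A and SOX10 T, 9 carried UTX and 9 TFAP2B, while 4 carried TFAP2A in the WT line. Over all distal joint peaks, ARID1A was on 91.5%, UTX on 78.8% and WT TFAP2A on 43.0%, so these counts are near the class. SOX10 T was on 22.1% and TFAP2B on 47.9% of that class. In its top class of SOX10 U fold enrichment these shares were 48.8% and 52.5%, so the SOX10 T and TFAP2B counts were above them.

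At gene ends the joint values were lower. The highest was at Elmo2, an adaptor gene of cell motility (SOX10 U 20.9, TFAP2A 14.4), followed by Car6 (19.6) and by A130010J15Rik, Zc3h14, Dglucy and Sh3tc2 (19.0 each). The list of 10 closed with Sf3a1, a splicing factor gene, Itprip, Adamts20, a metalloprotease gene whose loss gives belted mice a white belt, and A930018P22Rik (16.3). Of these 10 peaks, all carried ARID1A, 8 UTX, 7 TFAP2B and 5 H3K4me3. Over all 537 joint peaks at gene ends the shares were 91.1%, 73.6%, 76.2% and 82.3%, so only the H3K4me3 count was well below its share. The human counterpart of Sh3tc2 is mutated in a demyelinating neuropathy, which was seen after the values were known. How many genes of this kind are among all genes was not counted.

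The strongest SOX10-only site was distal and lay nearest to the end of a pigment gene. It lay 14658 bp from the end of Tyr, the gene for tyrosinase, the rate-limiting enzyme of melanin synthesis, with a fold enrichment of 42.7 and with ARID1A, UTX and SOX10 T (chromosome 7, 87508170 to 87508690). Others lay inside Cyp2j9 (39.9) and Cyp2j6 (34.1), neighbouring cytochrome P450 genes, Pdzd2 (37.2), Acvr1, a BMP receptor gene (37.2), and Maml3, a Notch co-activator gene (33.2), and nearest to the ends of Dtwd2 (35.4), Col4a2 (31.7, inside the neighbouring collagen gene Col4a1), Csmd1 (29.0) and Ralgapa2 (28.1). Of these 10, 9 carried SOX10 T (all but Col4a2), 9 UTX (all but Maml3), 8 ARID1A, and 0 TFAP2B, H3K4me3 or WT TFAP2A. Over all distal SOX10-only peaks, TFAP2B was on 1.52%, H3K4me3 on 3.90% and WT TFAP2A on 1.81%, so the absence of these 3 is near the class. SOX10 T was on 10.1%, UTX on 46.6% and ARID1A on 59.9% of that class. In its top class of fold enrichment these shares were 31.2%, 64.2% and 71.0%. SOX10-only sites at gene ends were weaker, led by Nfatc2, a calcium-regulated factor gene (15.4), and Gjc3, a connexin gene of myelinating glia (15.4). Others were Tlcd2, D830031N03Rik, Hao1, Spint4, Pld4, Mill2 and Wbp11 (10.2).

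The strongest TFAP2A-only sites, by TFAP2A fold enrichment, were at gene ends those of Rap2a, a small GTPase gene (305), Zyx, which encodes the focal adhesion protein zyxin (199), Mxd1, a MAX-binding repressor gene (175), Pwwp3a (156), Neurl4, Myorg, Far1, Cyth1, Map3k12 and Map3k14 (141). The distal ones included 2 sites in Plec, the plectin gene (176 and 128), Trerf1 (162), Ptk2, the gene for focal adhesion kinase (153), Cpn2, Atp5l, Cd9, Ppcdc, Mier3 and Bahcc1 (104). All 20 carried ARID1A, TFAP2B and WT TFAP2A, 17 carried UTX, and 0 carried SOX10 T. Of all TFAP2A-only peaks at gene ends, 40.4% carried ARID1A, 55.1% TFAP2B, 63.3% WT TFAP2A, 14.9% UTX and 0.720% SOX10 T. The distal shares were 55.7%, 28.2%, 44.6%, 22.7% and 0.872%, so the absence of SOX10 T is near the share of the class.

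Genes were counted in 2 ways among 21896 protein-coding genes. At a gene end, 639 genes had a joint peak (2.92%), 206 a SOX10-only peak (0.941%) and 6941 a TFAP2A-only peak (31.7%). By the nearest gene end at any distance, 2275 genes had a joint peak (10.4%), 2241 a SOX10-only peak (10.2%) and 9110 a TFAP2A-only peak (41.6%). A gene can be in more than 1 class, and genes in wide intergenic space collect more peaks. Of the 838 genes with SOX10 U at an end, 710 also had TFAP2A there, 638 of them in a joint peak and 72 in separate peaks. Over all genes, 7442 had TFAP2A at an end (34.0%). Of the 3750 genes nearest to a SOX10 U peak, 3165 were also nearest to a TFAP2A peak, against 9814 of all genes (44.8%). Of these 3165 genes, 2262 had a joint peak and 903 had separate peaks only. The other 585 had SOX10 U without TFAP2A.

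The mix differed between genes with many sites. Ets1 was nearest to 15 SOX10 U peaks, 5 joint and 10 SOX10-only. Sox5, a SOX gene without a transactivation domain, was nearest to 13, of which 1 was joint and 12 were SOX10-only, and Zeb2, a zinc finger gene of neural crest and melanocytes, to 10, 1 joint and 9 SOX10-only. Septin9 had 8 joint and 4 SOX10-only peaks, and Myc 5 and 5.

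Among pigment cell genes, Tyr and Tyrp1 had SOX10-only peaks, Sox10 and Pax3 were nearest to joint peaks, and Mitf and Erbb3 had both kinds. At a gene end, 0 of the 22 listed had a joint peak, 0 a SOX10-only peak and 5 a TFAP2A-only peak (22.7%), against 2.92%, 0.941% and 31.7% of all genes, so the absence of joint and SOX10-only peaks there is near the share of all genes. By the nearest end, 4 were nearest to a joint peak (Mitf, Sox10, Pax3 and Erbb3), 5 to a SOX10-only peak (Mitf, Tyr, Tyrp1, Mreg and Erbb3) and 8 to a TFAP2A-only peak, that is 18.2%, 22.7% and 36.4%, against 10.4%, 10.2% and 41.6% of all genes. The enzyme genes Tyr and Tyrp1 each had a single peak, SOX10-only, with fold enrichments of 42.7 and 9.07, and both lay upstream, with summits 14873 bp and 14351 bp before the annotated start. At other genes of the list, peaks inside or nearest to the gene were of several kinds. Mitf, the gene for the master regulator of melanocytes, had 2 joint peaks (12.7 and 7.25), 3 SOX10-only peaks (13.6, 5.44 and 11.8) and 2 TFAP2A-only peaks. Sox10 itself had 2 joint peaks, 1184 bp and 28431 bp from its end (4.53 and 9.97), and 3 TFAP2A-only peaks, and 2 SOX10-only peaks (up to 7.25) lay within 20 kb of it but nearer to the end of another gene. Pax3, a neural crest factor gene, had 2 joint peaks (17.2 and 8.14) and no SOX10-only peak. Erbb3, which encodes a neuregulin receptor, had 1 joint peak (13.6) and 1 SOX10-only peak (11.1) inside the gene. Dct, Mlana, Kit, Ednrb, Gpr143, Oca2 and Rab38 had none of the 3 kinds of peak. As a check of the label, H3K4me3 stood at an end of 10 of the 22 pigment genes, against 53.8% of all genes. The count was thus not above the share of all genes. The 10 included Mitf, Sox10, Pmel, Pax3 and Erbb3, but not Tyr, Tyrp1, Dct or Mlana.

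**Figure D5:**
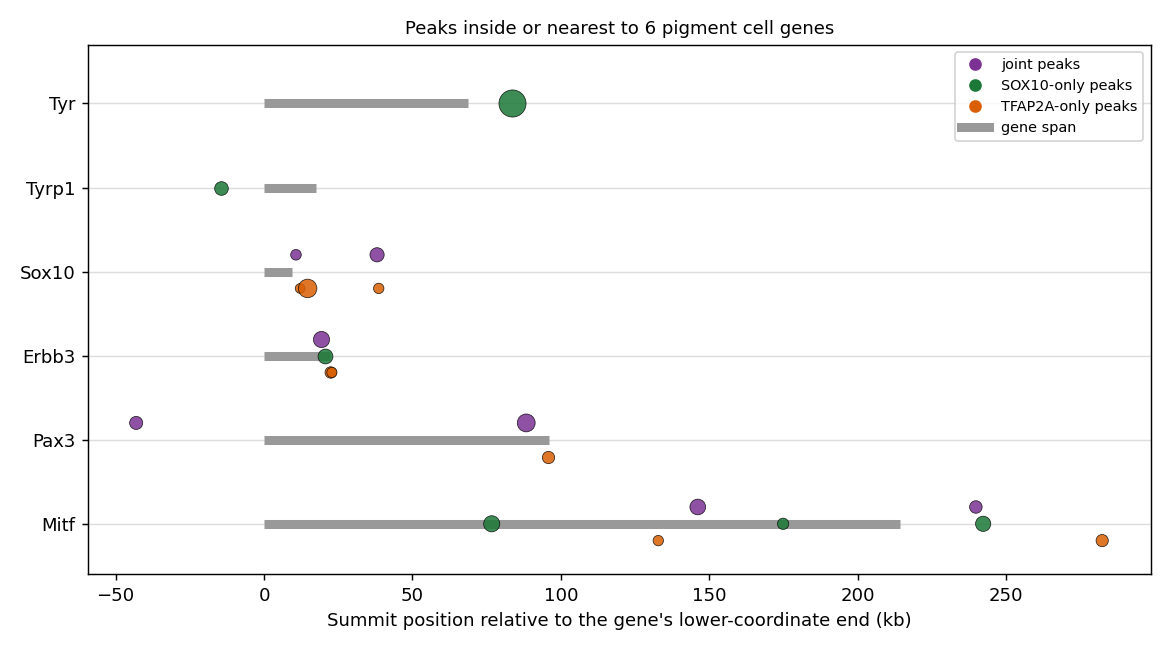
Circles mark the summits of joint, SOX10-only and TFAP2A-only peaks inside or nearest to 6 pigment cell genes, placed in kb from the lower-coordinate end of each gene, with the gene span as a grey bar; circle area grows with fold enrichment in the peak's own list. Tyr and Tyrp1 have only a SOX10-only peak, Sox10 and Pax3 have joint and TFAP2A-only peaks (2 SOX10-only peaks within 20 kb of Sox10 are nearest to another gene and not drawn), and Mitf and Erbb3 have all 3 kinds.

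As many Schwann cell and glial genes were nearest to a joint peak as to a SOX10-only peak. Of the 22 genes, 9 were nearest to a joint peak (40.9%), 9 to a SOX10-only peak (40.9%) and 13 to a TFAP2A-only peak (59.1%), against 10.4%, 10.2% and 41.6% of all genes. Egr2, a factor gene for myelination, had a joint peak 94969 bp from its end (10.2), and Foxd3, a neural crest factor gene, had a joint peak of 29.9 and SOX10-only peaks of 16.3 and 11.8, all upstream by more than 100 kb. Sox2, a progenitor factor gene, had a joint peak at its start (5.44) and one of 24.5 at 69890 bp. Cdh19, a cadherin gene of Schwann cells, had a SOX10-only peak at a gene end (4.53).

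The other lists were counted by the nearest gene end in the same way, and their shares stand against the same 10.4% (joint), 10.2% (SOX10-only) and 41.6% (TFAP2A-only) of all genes. Of 22 neural crest genes, 10 were nearest to a joint peak (45.5%), 6 to a SOX10-only peak (27.3%) and 17 to a TFAP2A-only peak (77.3%), with Tfap2a itself near a joint site (13.6). Of 25 mesenchymal state genes the counts were 15, 10 and 24 (60.0%, 40.0% and 96.0%), and Vim, the vimentin gene, had a joint peak at its end (6.22). Of 16 genes of MAPK output they were 10, 10 and 16 (62.5%, 62.5% and 100%), with joint peaks at the ends of Spry4, Etv5 and Phlda1 and a SOX10-only peak at that of Dusp6 (6.51), a phosphatase gene for ERK. Of 13 AP-1 genes they were 2, 2 and 12 (15.4%, 15.4% and 92.3%), near the shares of all genes for joint and SOX10-only peaks. Ribosomal protein genes, all 21 with H3K4me3 at an end, were nearest to a joint peak in 0, to a SOX10-only peak in 0 and to a TFAP2A-only peak in 14 cases (66.7%), although 1 joint peak each lay within 20 kb of Rpl13 (5.44) and of Rpl18 (4.53). Among marker lists of other cell types, keratinocyte genes had 0, 0 and 1 of 10, blood cell genes 0, 0 and 3 of 8, endothelial genes 0, 1 and 1 of 6, and silent tissue-restricted genes 1, 0 and 0 of 12. Fibroblast markers had 2, 6 and 4 of 10, with a SOX10-only peak at an end of Postn (6.35) and H3K4me3 at an end of 4. Over all genes, 53.8% had H3K4me3 at an end. The lists share some genes, and part of the difference from all genes that lies in gene spacing was not tested.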

How the data were processed

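The files were peak lists of 22 CUT&RUN libraries. Reads were aligned and peaks called with Bowtie2 and MACS2 on mm10, per the submitters' processing notes, which also name FastQC and MultiQC; no source used here gives versions, settings or the control, and the 2 IgG samples were not analysed here. Each deposited peak carried a score, the authors' fold enrichment (a ratio), the deposited −log10 p and −log10 q, and a summit. Scores were that −log10 q multiplied and cut to whole numbers, and carry nothing further.

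Overlaps of at least 1 bp, distances to the ends of 21896 protein-coding genes (GRCm38.p6 RefSeq table, no strand used) and summit distances were computed here. Summit distance took the nearest summit among overlapping peaks. Named genes were those of the 10 peaks of highest fold enrichment per class and place outside regions called in at least 15 lists, and the members of 12 gene lists (174 genes, all found). A gene that this rule names is not reported here. Genes with many sites were named after their values were seen. Promoter windows were RefSeq's, 21229 for 17461 genes; chromosome 18 windows were not used. The median of a distance carries an exact binomial interval. The members and lists were chosen with earlier results of these data known. Overlap, distance and interval routines were tested on simulated data. Alternatives varied the overlap, the q threshold, list length, regions called in most lists, the antibody, the window, the point measured from and the pairing of summits. The steps ran in Python 3.11.15 with pandas 2.3.3, NumPy 2.4.6 and SciPy 1.17.1, and plots were drawn with Matplotlib 3.10.9.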

Additional observations from a re-analysis of the deposited data

How the results depend on the processing

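Of 65 alternative values, 27 stayed within the interval of the reported value (for gene counts, within 1.5 times) and 38 moved. In every alternative run for location or for H3K4me3, SOX10-only peaks were the least and TFAP2A-only peaks the most often at a gene end or on the mark. The joint share of SOX10 U peaks was 46.1% when the overlap had to cover 50% of the shorter peak, 42.4% with summits within 200 bp, 42.8% with a −log10 q of at least 5, 23.4% with a TFAP2A list of equal length, 66.0% with SOX10 T in place of SOX10 U and 67.2% for peaks called with both antibodies. That of TFAP2A peaks was 15.7%, 14.5%, 14.5%, 23.1% and 4.15% under the first 5 of these. For joint, SOX10-only and TFAP2A-only peaks, the gene-end share was 15.1%, 4.02% and 46.6% with a −log10 q of at least 5, 24.9%, 7.11% and 56.4% with the list of equal length, and 23.0%, 8.87% and 51.3% with a window of 2.5 kb. With SOX10 T it was 7.87% of SOX10-only and 39.9% of TFAP2A-only peaks, and for TFAP2A-only peaks 40.9% from the summit and 39.4% to start sites. The H3K4me3 share of the 3 classes was 18.0%, 5.30% and 56.1% with a −log10 q of at least 5 and 34.4%, 10.9% and 68.9% with the list of equal length; it was 23.2% for joint peaks without regions called in at least 15 lists and 50.9% for TFAP2A-only peaks with SOX10 T. The median summit distance was 63 bp with a −log10 q of at least 5, 50 bp for narrow joint peaks and 674 bp from all SOX10 U peaks to the nearest TFAP2A summit, by construction larger since SOX10-only peaks enter. Genes with a joint peak at an end numbered 353, and with a SOX10-only peak 122, with a −log10 q of at least 5; 345 had a SOX10-only peak within 2.5 kb. The start-site measure and the limit to peaks of both antibodies were chosen after seeing the data. No paired analysis was possible because each target had 1 library per line. Depth is unknown, so an absent peak may be a peak below the caller's threshold.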
